A study of Mus musculus with 12 samples.

Results

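Interferon-stimulated antiviral genes, the transcripts that cells switch on when interferon signals a viral threat, were followed across 6 groups of mouse peritoneal macrophages. A list of 33 such genes was taken, and each was read by the brightest of the probe sets listed for it alone. Of the 33 genes, 31 had such a probe set among 19938 genes tested, Isg15 was read only by a probe set shared with the pseudogene Gm9706, and Ifi44 was not analysed here. The macrophages were drawn by thioglycollate, a peritoneal irritant, from C57BL/6 mice fed chow (control) or high-fat food from the age of 6 weeks, over 12 weeks. They were cultured without red blood cells (RBC), with RBC of chow-fed mice or with RBC of high-fat-fed mice, which macrophages engulf. Diet and RBC therefore gave 6 groups: chow macrophages alone, with chow RBC or with high-fat RBC, and high-fat macrophages alone, with chow RBC or with high-fat RBC. Each group had 2 Affymetrix Mouse Gene ST arrays, numbered by animal, 12 in all. Age, strain and the irritant were shared by every group, and the labels used here do not say whether the RBC of the arrays of a group were separate preparations, so part of the spread between arrays may be technical.

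The values are log2 signals, so a difference of 1 is a doubling. Differences are given ± SE from a limma fit to all 12 arrays, and calls are made at an adjusted p (Benjamini-Hochberg, over every gene tested) under 0.05. How far signals stood above background is unknown, since no detection calls were used, and precision is limited by the number of arrays. In such bulk cultures fewer cells of a type and less RNA per cell cannot be told apart.

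Type I interferons bind the receptor IFNAR, whose kinases JAK1 and TYK2 phosphorylate STAT2. STAT2 acts with IRF9 in the complex ISGF3, which binds interferon-stimulated response elements in promoters. The proteins made in turn bind viral RNA, degrade it, sense it or block viral entry and budding. Macrophages also make small amounts of interferon beta in the resting state, which keeps a low level of these genes running.

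Promoter sequences are shown because such elements are what the genes on the list are known to have in common. The motif searched was GAAANNGAAA, a simple form of the response element, on both strands (TTTCNNTTTC on the other), and overlapping matches were counted apart. RefSeq promoter windows (GRCm38.p6, 250 bases before to 50 bases after the transcription start) were at hand for 23 of the 33 genes. Of these 23 genes 12 (52.2%) held a match, against 3.99% of 27025 genes with a window and 3.44% of all 32851 windows. A match was found for Ifit1, Ifit3, Isg15, Oas1a, Oas3, Ifih1, Ddx60, Eif2ak2, Rsad2, Bst2, Trim30a and Ifi205, and 7 genes held 2 or more in a window. The parts before the start are printed for Ifit1 (chr19:34640639-34640888, plus strand), Ifit3 (chr19:34583279-34583528, plus strand), Isg15 (chr4:156200819-156201068, minus strand) and Ifi205 (chr1:174031756-174032005, minus strand). Ifit1 and Ifit3 were among the genes with the widest gaps between macrophage diets, Isg15 held 3 overlapping matches, and Ifi205 had the steepest fall. They run 5′ to 3′ on the gene's strand, with matches in capitals.
Ifit1: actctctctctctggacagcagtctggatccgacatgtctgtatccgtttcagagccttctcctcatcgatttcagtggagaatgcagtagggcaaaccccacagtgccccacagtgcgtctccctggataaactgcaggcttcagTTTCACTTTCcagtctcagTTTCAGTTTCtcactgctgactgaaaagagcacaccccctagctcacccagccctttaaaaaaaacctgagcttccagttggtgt
Ifit3: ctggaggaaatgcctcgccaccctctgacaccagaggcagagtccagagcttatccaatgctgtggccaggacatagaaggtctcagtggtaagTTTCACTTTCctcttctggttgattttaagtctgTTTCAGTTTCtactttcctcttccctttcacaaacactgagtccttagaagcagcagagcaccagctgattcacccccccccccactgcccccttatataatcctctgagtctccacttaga
Isg15: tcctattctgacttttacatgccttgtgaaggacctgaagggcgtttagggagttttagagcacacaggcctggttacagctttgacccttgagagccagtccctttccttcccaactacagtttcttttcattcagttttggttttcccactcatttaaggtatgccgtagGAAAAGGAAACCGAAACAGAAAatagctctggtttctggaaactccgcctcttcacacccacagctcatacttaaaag
Ifi205: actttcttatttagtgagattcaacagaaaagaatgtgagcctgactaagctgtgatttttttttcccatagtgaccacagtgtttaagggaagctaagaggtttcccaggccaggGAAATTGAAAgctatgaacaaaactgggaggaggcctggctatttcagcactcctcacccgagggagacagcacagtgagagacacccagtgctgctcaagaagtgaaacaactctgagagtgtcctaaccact
In Isg15 3 overlapping matches ran from position -78 to -57 before the start, and in Ifit1 matches began at -104 and -85. Ifi205 had another match at 24 bases past its start. Without RBC, the gap between macrophage diets described next had a median of 1.54 in the 11 genes with a match and a probe set of their own, 1.45 in the 10 without a match and 1.96 in the 10 with no window. These are descriptions of letters in a window, and no binding was measured.

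The interferon-stimulated genes were highest in chow macrophages without RBC, lowest in high-fat macrophages without RBC, and in between wherever RBC were given. The median over the 31 genes was 8.16 and 8.13 on the arrays of chow macrophages without RBC. It was 7.33 and 7.11 with chow RBC and 7.17 and 7.25 with high-fat RBC. In high-fat macrophages it was 6.12 and 5.95 without RBC, 6.79 and 6.84 with chow RBC and 6.56 and 6.74 with high-fat RBC. No group's arrays overlapped those of another macrophage diet, while the arrays with RBC of either kind overlapped in chow macrophages and lay apart by less in high-fat macrophages than either lay from the arrays without RBC. The median of all genes ran only from 5.24 to 5.31 over the 12 arrays.

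**Figure D1:**
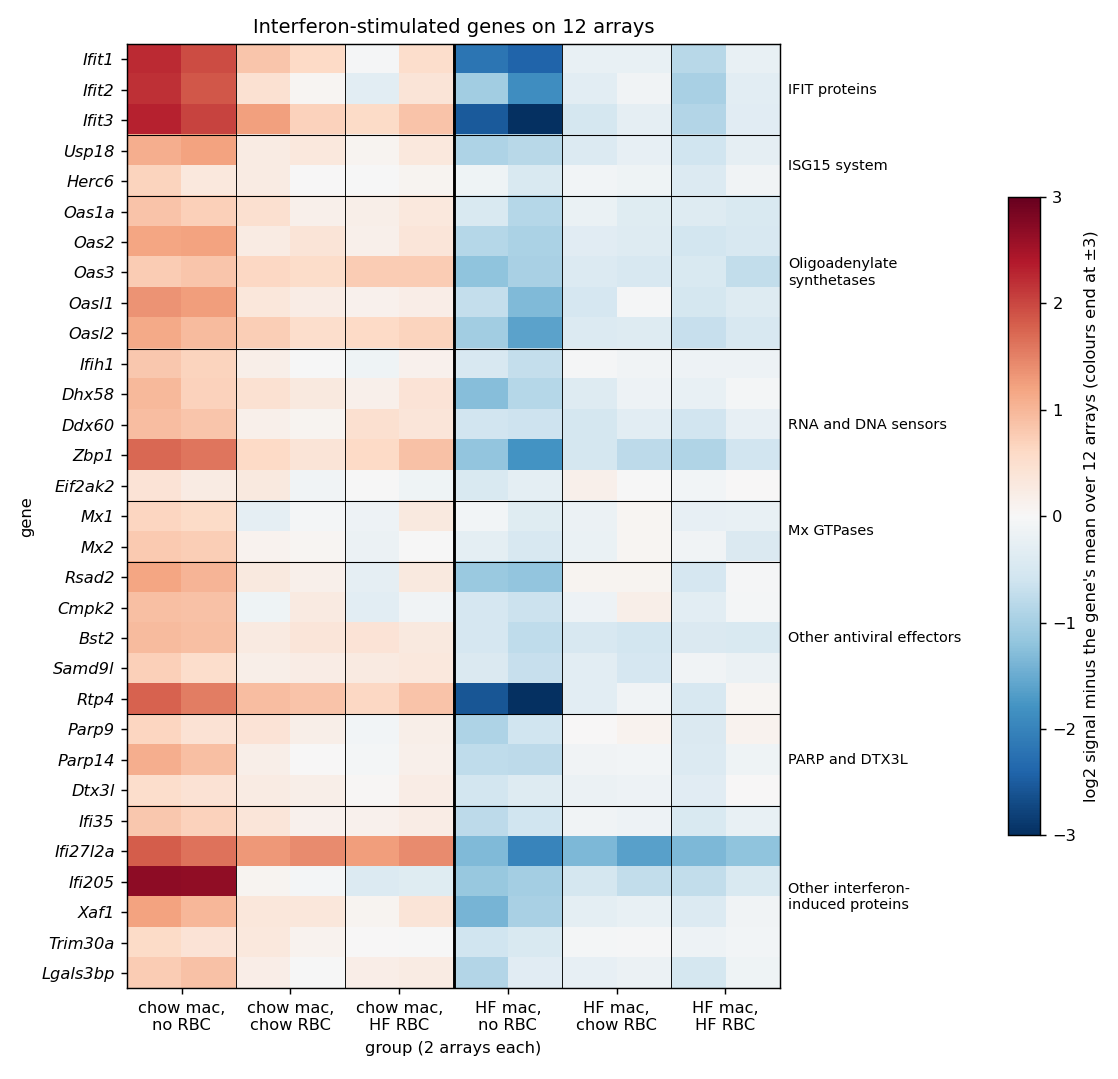
Log2 signal of the 31 genes (rows, by role) on 12 arrays (columns, 2 per group), each minus the gene's mean over all arrays; red is above and blue below that mean, and colours end at 3 log2 units. The 2 columns of chow macrophages (mac) without RBC are the reddest in 29 of 31 rows and those of high-fat (HF) macrophages without RBC the bluest in 23.

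For 29 of the 31 genes both arrays of chow macrophages without RBC stood above all other 10 arrays, which held for 8.9% of all genes tested. The exceptions were Oas3 and Eif2ak2. For 23 genes both arrays of high-fat macrophages without RBC stood below all other 10 (3.17% of all genes), and for 21 genes both held (1.06% of all genes). The other 10 of the 31 were Herc6, Oas1a, Oas3, Eif2ak2, Mx1, Mx2, Bst2, Samd9l, Ifi27l2a and Lgals3bp.

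The difference between macrophage diets in the absence of RBC was read from the 4 arrays without them. All 31 genes were lower in high-fat than in chow macrophages, from Ifit3 at -4.98 ± 0.22 to Eif2ak2 at -0.71 ± 0.13, where 5.82% of all genes tested were called lower, 8.12% higher and 13.9% in either direction. The median difference was -1.78, against -0.01 over all genes. Ifit3, Rtp4 and Ifit1 were 31.6-fold, 22.8-fold and 21.1-fold lower. Their means in high-fat macrophages without RBC were 4.20, 5.06 and 3.97, below the median of all genes on those arrays (5.31 and 5.24). There 9 and 11 of the 31 genes lay below that median, against 2 and 2 in chow macrophages without RBC. The size of these folds, and of rises from that level, is therefore uncertain. All 31 calls were kept without any of the 12 arrays in turn.

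In chow macrophages these genes were lower with RBC than without. With chow RBC 21 of 31 fell (2.94% of all genes tested were called lower, 9.18% either way) and with high-fat RBC 23 fell (2.93% lower, 8.34% either way), and 0 rose with either (6.23% and 5.41% of all genes). By limma 27 and 30 of the genes had an unadjusted p under 0.05. The median difference was -0.74 (chow RBC) and -0.60 (high-fat RBC), against -0.02 and -0.03 over all genes. Estimates were negative for all 31 genes with both kinds of RBC. Both comparisons share the 2 arrays of chow macrophages without RBC. Without array 1 of chow macrophages with high-fat RBC the 23 became 14, and without array 1 of chow macrophages without RBC 15.

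High-fat macrophages moved the other way. With chow RBC 11 of 31 genes rose (0.557% of all genes tested were called higher, 0.647% either way) and with high-fat RBC 7 rose (0.647% higher, 0.752% either way), and 0 fell with either (0.0903% and 0.105% of all genes), while 25 and 24 genes had an unadjusted p under 0.05. Median differences were 0.55 and 0.44, against -0.01 and -0.00 over all genes. Rtp4, Ifit3, Ifit1, Rsad2, Xaf1, Dhx58 and Oasl2 rose with both kinds of RBC, and Oas2, Oas3, Parp9 and Parp14 with chow RBC, with high-fat RBC estimates of 0.39 ± 0.10, 0.48 ± 0.11, 0.59 ± 0.17 and 0.52 ± 0.12. Estimates were positive for 31 genes with chow RBC and for 30 with high-fat RBC, Mx1 being at -0.02 ± 0.15. The calls rested on few arrays: without either array of high-fat macrophages with chow RBC the 11 became 4, and without array 2 of high-fat macrophages with high-fat RBC the 7 became 3.

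Whether the responses to RBC differed between the macrophage diets was tested directly, as the response in high-fat macrophages (mean of both kinds of RBC minus none) less that in chow macrophages. The difference was positive for all 31 genes and called for 29 (2.57% of all genes tested were called positive, 3.1% negative and 5.67% either way), with a median of 1.18 against 0.02 over all genes. Herc6 (0.51 ± 0.18, adjusted p = 0.15) and Ifi27l2a (0.65 ± 0.21, adjusted p = 0.10) did not pass. Leaving out an array in turn gave 24 to 29 calls.

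**Figure D2:**
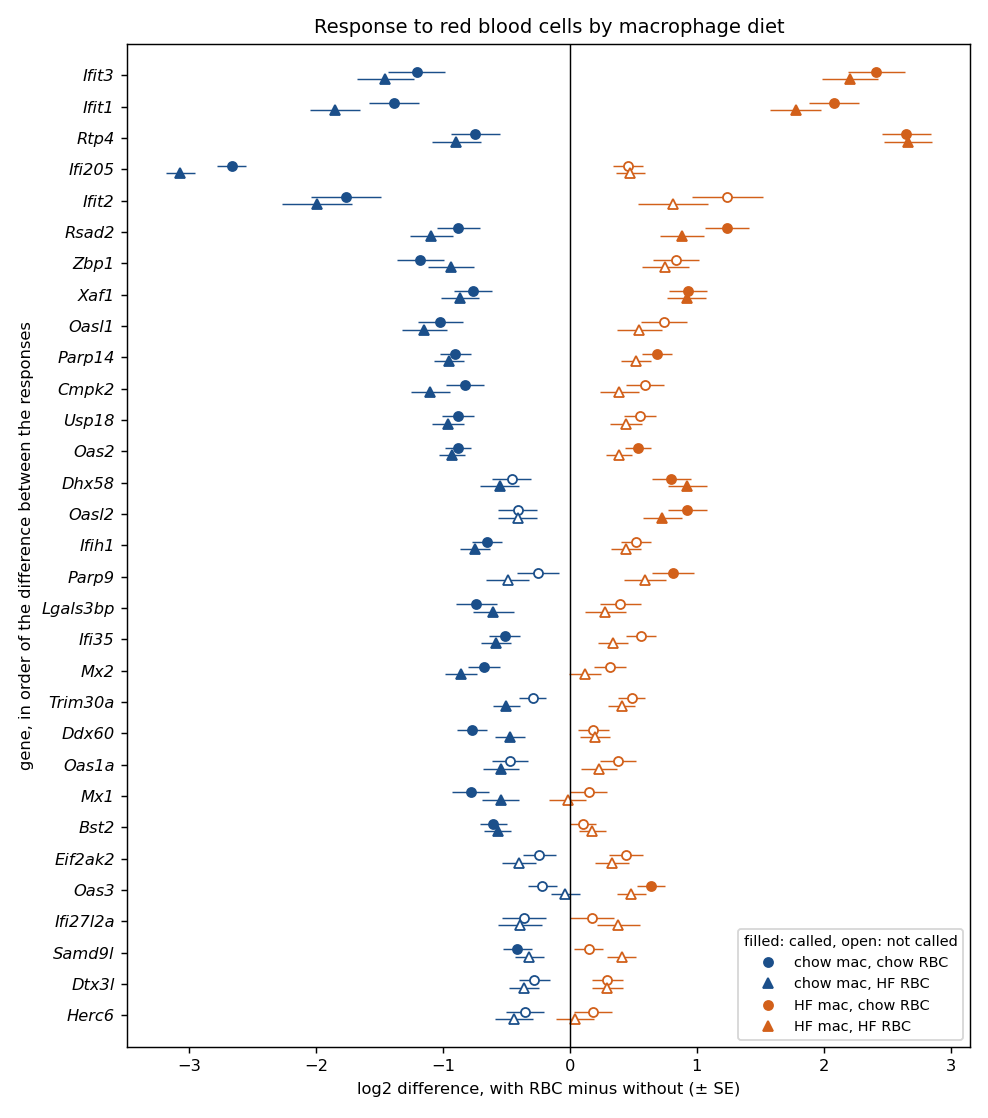
Log2 difference between cultures with and without RBC for 31 genes (rows) with SE as bars, in chow (blue) and high-fat (orange) macrophages given chow RBC (circles) or high-fat RBC (triangles); filled symbols passed the test. All blue symbols lie at or below -0.04 and, apart from Mx1 at -0.02, all orange ones lie above 0.

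In the paragraphs that follow, values of a gene are given for each array in the order without RBC, with chow RBC, with high-fat RBC. The response difference is that between the macrophage diets as just defined, and the diet difference is high-fat minus chow without RBC. Signals of different probe sets are not on a common scale and were not compared between single genes.

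The IFIT proteins bind viral RNA that lacks the host's cap marks and keep it from the ribosome. Ifit3 gave 9.32 and 9.04, 8.24 and 7.70, and 7.58 and 7.87 in chow macrophages against 4.50 and 3.89, 6.49 and 6.74, and 6.14 and 6.67 in high-fat macrophages. Ifit1 gave 8.51 and 8.23, 7.11 and 6.86, and 6.24 and 6.80 in chow macrophages against 4.08 and 3.86, 6.04 and 6.06, and 5.45 and 6.05 in high-fat macrophages. For these genes every array of chow macrophages lay above every array of high-fat macrophages. The response difference was 3.64 ± 0.27 (adjusted p = 2.6e-06) for Ifit3 and 3.55 ± 0.24 (adjusted p = 1.1e-06) for Ifit1. Ifit2 gave 8.01 and 7.67, 6.28 and 5.87, and 5.50 and 6.20 against 4.77 and 3.95, 5.50 and 5.71, and 4.85 and 5.50. In Ifit2 the arrays with RBC of the macrophage diets overlapped. Ifit2 fell in chow macrophages by 1.76 ± 0.28 and 1.99 ± 0.28, and its estimates in high-fat macrophages, 1.24 ± 0.28 and 0.81 ± 0.28, did not pass (adjusted p = 0.071 and 0.35). Ifit2 and Ifit3 are neighbours on chromosome 19, and the further copies Ifit3b, Ifit1bl1 and Ifit1bl2 lie between Ifit3 and Ifit1, and signal of near-identical copies on these probe sets cannot be told apart.

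ISG15 is a small ubiquitin-like protein, Herc6 attaches it to targets in the mouse and Usp18 removes it and dampens the interferon receptor. The probe set shared by Isg15 and Gm9706 gave 8.55 and 8.29, 6.99 and 6.87, and 6.79 and 6.91 in chow macrophages against 5.76 and 5.79, 6.27 and 6.34, and 6.18 and 6.41 in high-fat macrophages. Every array of chow macrophages lay above every array of high-fat macrophages. In a fit that kept shared probe sets, its diet difference was -2.65 ± 0.11, and it fell in chow macrophages by 1.49 ± 0.11 and 1.57 ± 0.11. In high-fat macrophages its estimates of 0.53 ± 0.11 and 0.52 ± 0.11 did not pass (adjusted p = 0.056 and 0.055), and the response difference of 2.06 ± 0.14 did (adjusted p = 1.2e-06). Usp18 gave 7.79 and 7.91, 6.94 and 7.01, and 6.77 and 7.01 against 5.77 and 5.86, 6.29 and 6.44, and 6.10 and 6.43. Here too no array of high-fat macrophages reached an array of chow macrophages, and the response difference was 1.42 ± 0.15 (adjusted p = 7.2e-05). Herc6 gave 7.07 and 6.72, 6.67 and 6.42, and 6.41 and 6.51 against 6.29 and 5.95, 6.32 and 6.28, and 6.01 and 6.32. Herc6 did not pass for either kind of RBC, and its diet difference of -0.78 ± 0.15 passed (adjusted p = 0.0026).

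Oligoadenylate synthetases make the short chains that switch on RNase L, which cuts viral and host RNA; Oasl1 and Oasl2 are relatives, of which Oasl1 holds back translation of Irf7. Oas2 gave 7.50 and 7.51, 6.55 and 6.70, and 6.47 and 6.68 in chow macrophages against 5.45 and 5.37, 5.98 and 5.92, and 5.77 and 5.84 in high-fat macrophages. Oasl1 gave 8.40 and 8.31, 7.39 and 7.27, and 7.17 and 7.25 against 6.34 and 5.73, 6.54 and 7.02, and 6.51 and 6.66. Oasl2 gave 8.67 and 8.50, 8.28 and 8.06, and 8.13 and 8.21 against 6.49 and 5.94, 7.12 and 7.16, and 6.83 and 7.05. In all these genes the arrays without RBC were the extremes of both diets, and no array of high-fat macrophages reached one of chow macrophages. Oas2 fell by 0.88 ± 0.10 and 0.93 ± 0.10 in chow macrophages, whereas Oasl2, at -0.41 ± 0.15 with either kind, did not pass (adjusted p = 0.12) and rose by 0.93 ± 0.15 and 0.73 ± 0.15 in high-fat macrophages. Response differences were 1.73 ± 0.22 for Oasl1, 1.37 ± 0.13 for Oas2 and 1.24 ± 0.19 for Oasl2, all called. Oas3 stood apart in the group, with 8.09 and 8.15, 7.94 and 7.87, and 8.08 and 8.09 in chow macrophages against 6.12 and 6.36, 6.92 and 6.84, and 6.86 and 6.58. Its arrays of chow macrophages all lay between 7.87 and 8.15, with estimates of -0.22 ± 0.11 and -0.04 ± 0.11 that did not pass, and its response difference of 0.69 ± 0.14 was called (adjusted p = 0.0093). Oas1a was called for the diet difference, -1.43 ± 0.14, and the response difference, 0.81 ± 0.17, and the brighter probe set it shares with Oas1g gave -1.66 ± 0.12 and 0.90 ± 0.15. Oas2 and Oas3 are neighbours on chromosome 5, as are Oasl1 and Oasl2.

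Among sensors of foreign nucleic acid, Zbp1 binds left-handed RNA and DNA and starts cell death, Ifih1 (MDA5) senses long double-stranded RNA, and Dhx58 (LGP2) tunes that sensing. Zbp1 gave 8.46 and 8.32, 7.32 and 7.11, and 7.31 and 7.59 in chow macrophages against 5.54 and 4.92, 6.20 and 5.93, and 5.82 and 6.15 in high-fat macrophages. Its macrophage diets did not overlap, and the diet difference of -3.16 ± 0.18 was the widest in this group. Dhx58 gave 7.02 and 6.75, 6.51 and 6.35, and 6.21 and 6.46 against 4.77 and 5.21, 5.68 and 5.91, and 5.84 and 5.99. Ifih1 gave 7.81 and 7.66, 7.19 and 6.98, and 6.86 and 7.12 against 6.52 and 6.30, 6.97 and 6.89, and 6.85 and 6.85. With RBC the diets stayed apart in Dhx58 and overlapped in Ifih1. Zbp1 and Ifih1 fell in chow macrophages with both kinds of RBC, by 0.65 to 1.18, and did not pass in high-fat macrophages, where their estimates ran from 0.44 to 0.84. Dhx58 rose in high-fat macrophages by 0.80 ± 0.15 and 0.93 ± 0.15, and in chow macrophages it fell with high-fat RBC by 0.55 ± 0.15 but was at -0.46 ± 0.15 with chow RBC, which did not pass (adjusted p = 0.081). Response differences were 1.85 ± 0.22 for Zbp1, 1.37 ± 0.19 for Dhx58 and 1.18 ± 0.15 for Ifih1. Ddx60, a helicase that aids RNA sensing, fell with both kinds of RBC in chow macrophages (by 0.77 ± 0.12 and 0.47 ± 0.12). Eif2ak2 (PKR), the kinase that stops translation on double-stranded RNA, passed for none of the 4 exposures, with 7.15 and 6.98, 7.03 and 6.62, and 6.71 and 6.62 against 6.28 and 6.44, 6.89 and 6.71, and 6.64 and 6.74. Its high-fat arrays with RBC lay among those of chow macrophages with RBC, and its response difference was 0.71 ± 0.16 (adjusted p = 0.019).

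Mx proteins are dynamin-like GTPases that trap viral particles, and RefSeq lists both Mx1 and Mx2 of C57BL/6J as transcribed pseudogenes. Mx1 gave 4.60 and 4.54, 3.68 and 3.89, and 3.80 and 4.25 in chow macrophages against 3.88 and 3.60, 3.77 and 4.0, and 3.70 and 3.74 in high-fat macrophages. Mx2 gave 4.16 and 4.11, 3.48 and 3.45, and 3.21 and 3.36 against 3.08 and 2.90, 3.17 and 3.44, and 3.27 and 2.95. In both genes the chow macrophages without RBC stood above the rest; the other groups overlapped in Mx1, and in Mx2 the chow macrophages with chow RBC lay just above the remaining 4 groups. On every array both lay below the median of all genes, which ran from 5.24 to 5.31, so these are differences between low signals. Mx1 and Mx2 fell in chow macrophages by 0.54 to 0.85 and were not called in high-fat macrophages. Their response differences were 0.73 ± 0.18 (adjusted p = 0.029) and 0.98 ± 0.16 (adjusted p = 0.0016).

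Rtp4, which restrains viral RNA and the interferon response itself, Rsad2 (viperin), which makes a chain-terminating nucleotide, and Cmpk2, which feeds it with triphosphates, are effectors of different kinds. Rtp4 gave 9.69 and 9.45, 8.86 and 8.79, and 8.56 and 8.79 in chow macrophages against 5.35 and 4.77, 7.61 and 7.81, and 7.45 and 8.0 in high-fat macrophages. It rose by 2.65 ± 0.19 and 2.66 ± 0.19 in high-fat macrophages, the steepest rise of the 31 genes, and fell by 0.74 ± 0.19 and 0.89 ± 0.19 in chow macrophages. Rsad2 gave 9.07 and 8.90, 8.17 and 8.04, and 7.61 and 8.18 against 6.76 and 6.70, 7.97 and 7.98, and 7.38 and 7.86. Cmpk2 gave 6.43 and 6.41, 5.40 and 5.80, and 5.21 and 5.44 against 5.03 and 4.88, 5.38 and 5.72, and 5.22 and 5.48. In Rsad2 and Cmpk2, neighbours on chromosome 12, the 8 arrays with RBC overlapped between the macrophage diets, whereas in Rtp4 they did not. Rsad2 fell and rose by like amounts, -0.88 ± 0.17 and -1.09 ± 0.17 in chow and 1.24 ± 0.17 and 0.88 ± 0.17 in high-fat macrophages, and all 4 passed. Response differences were 3.48 ± 0.23 for Rtp4, 2.05 ± 0.21 for Rsad2 and 1.45 ± 0.18 for Cmpk2. Bst2 (tetherin), which holds budding virus to the membrane, fell in chow macrophages by 0.60 ± 0.10 and 0.57 ± 0.10, and its estimates in high-fat macrophages were 0.10 ± 0.10 and 0.18 ± 0.10. Samd9l, which curbs translation, fell by 0.41 ± 0.12 with chow RBC in chow macrophages, and its estimate of -0.32 ± 0.12 with high-fat RBC did not pass.

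**Figure D3:**
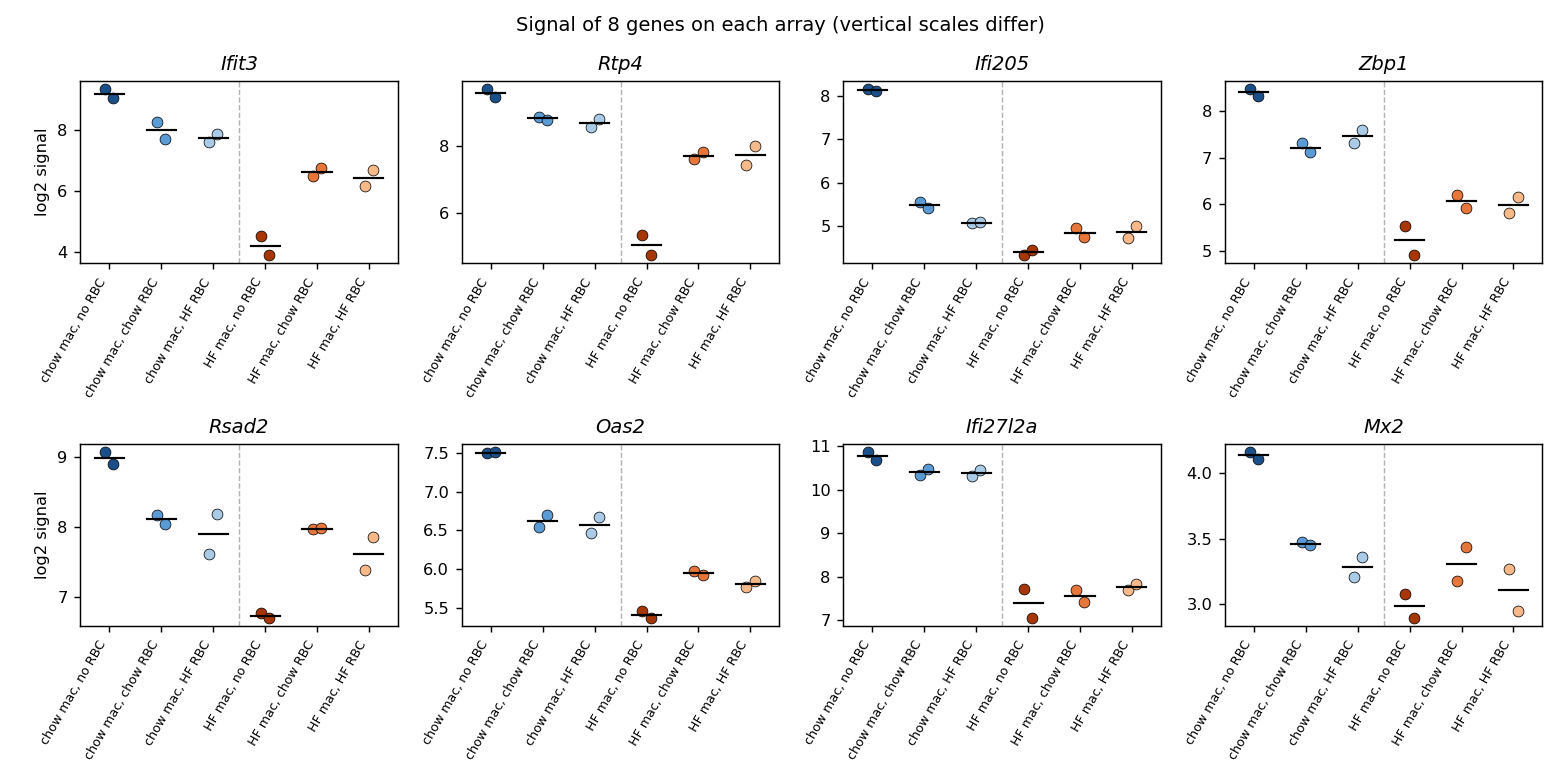
Log2 signal of 8 genes on each array (points) with the group mean (line), in chow macrophages left and high-fat (HF) macrophages right of the dashed line; vertical scales differ. Ifit3 and Rtp4 converge from both sides, Ifi205 drops from 8.16 and 8.13 in chow macrophages alone, and Ifi27l2a keeps its gap.

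Parp9 and Dtx3l work as a complex that modifies histones and viral proteins, and Parp14 adds ADP-ribose in the same pathway; the genes sit side by side on chromosome 16. Parp14 gave 8.57 and 8.39, 7.66 and 7.50, and 7.43 and 7.64 in chow macrophages against 6.72 and 6.69, 7.39 and 7.39, and 7.09 and 7.37 in high-fat macrophages. Parp9 gave 7.58 and 7.35, 7.33 and 7.11, and 6.86 and 7.10 against 6.01 and 6.33, 6.93 and 7.03, and 6.49 and 7.03. Dtx3l gave 7.44 and 7.32, 7.13 and 7.07, and 6.93 and 7.11 against 6.36 and 6.51, 6.71 and 6.75, and 6.56 and 6.90. The arrays without RBC were again the extremes, and only in Parp9 did arrays with RBC overlap between the macrophage diets. Parp14 fell in chow macrophages by 0.90 ± 0.12 and 0.95 ± 0.12, while Parp9 and Dtx3l did not pass there. Their response differences were 1.53 ± 0.15, 1.07 ± 0.20 and 0.61 ± 0.15 for Parp14, Parp9 and Dtx3l.

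Among the other interferon-induced genes, Ifi205, of the family of DNA-binding HIN proteins, had the steepest fall. It gave 8.16 and 8.13, 5.55 and 5.41, and 5.06 and 5.10 in chow macrophages against 4.33 and 4.44, 4.95 and 4.74, and 4.72 and 5.0 in high-fat macrophages. Chow macrophages without RBC stood alone and high, and the arrays with RBC of the macrophage diets lay close without overlapping. It fell by 2.66 ± 0.12 and 3.07 ± 0.12 in chow macrophages, and its estimates of 0.46 ± 0.12 and 0.48 ± 0.12 in high-fat macrophages did not pass (adjusted p = 0.12 and 0.10). Xaf1, a promoter of cell death, gave 8.29 and 8.08, 7.42 and 7.42, and 7.17 and 7.47 against 5.69 and 6.11, 6.79 and 6.86, and 6.67 and 6.96. Lgals3bp, a secreted galectin ligand, gave 11.19 and 11.29, 10.61 and 10.40, and 10.62 and 10.65 against 9.55 and 10.08, 10.18 and 10.25, and 9.90 and 10.29. In both, arrays without RBC of chow macrophages were the highest of all, and arrays with RBC of the macrophage diets did not overlap. Response differences were 3.33 ± 0.14 for Ifi205, 1.74 ± 0.18 for Xaf1 and 1.01 ± 0.20 for Lgals3bp. Ifi27l2a, a small protein strongly induced by interferon, kept apart by macrophage diet. It gave 10.87 and 10.68, 10.35 and 10.47, and 10.31 and 10.46 against 7.71 and 7.06, 7.70 and 7.41, and 7.70 and 7.84, with no exposure called in either kind of macrophage. Ifi35 fell with both kinds of RBC in chow macrophages, by 0.51 ± 0.12 and 0.58 ± 0.12, and Trim30a, a ubiquitin ligase, fell by 0.50 ± 0.11 with high-fat RBC, while its -0.29 ± 0.11 with chow RBC did not pass.

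With RBC present, the estimated gap between macrophage diets was narrower for all 31 genes, and part of the genes were still lower in high-fat macrophages. Averaged over both kinds of RBC, this narrowing is the response difference itself, read another way, and no further result. Given chow RBC, 15 of 31 genes were lower in high-fat macrophages (1.56% of all genes tested were called lower, 2.47% either way), and given high-fat RBC 12 were (0.903% lower, 1.36% either way), with 0 higher in either (0.908% and 0.461% of all genes). These comparisons use none of the arrays without RBC, and their median differences were -0.55 and -0.52. For 23 of 31 genes all 4 arrays of chow macrophages with RBC lay above all 4 of high-fat macrophages with RBC, as they did for 6.77% of all genes. The 15 became 5 and 9 without array 1 or 2 of chow macrophages with chow RBC and 8 and 7 without array 1 or 2 of high-fat macrophages with chow RBC. The 12 became 7 without array 2 of chow macrophages with high-fat RBC, and 7 without array 1 of high-fat macrophages with high-fat RBC.

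Averaged over both kinds of RBC, the gap (chow minus high-fat) had a median of 0.53 with RBC against 1.78 without, and the median share of the log2 gap that was left was 26.9%. In 14 genes less than 25% was left, in 14 between 25 and 50%, and in 3, Ifi27l2a (80.7%), Oas3 (63.4%) and Bst2 (53.0%), more than 50%. Cmpk2 went from 1.47 to 0.01 and Rsad2 from 2.25 to 0.20, whereas Ifit3 kept 1.34 of 4.98 and Zbp1 1.31 of 3.16. How much of the narrowing came from the fall in chow macrophages ran from 18.3% in Oas3 and 23.5% in Rtp4 to 86.0% in Ifi205 and 91.0% in Mx1, with a median of 57.4% and above 50% in 20 genes. Across the 31 genes, the fall in chow and the rise in high-fat macrophages had a Pearson r of 0.34 and a Spearman rho of 0.50, a description over genes that share all arrays and are not independent.

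**Figure D4:**
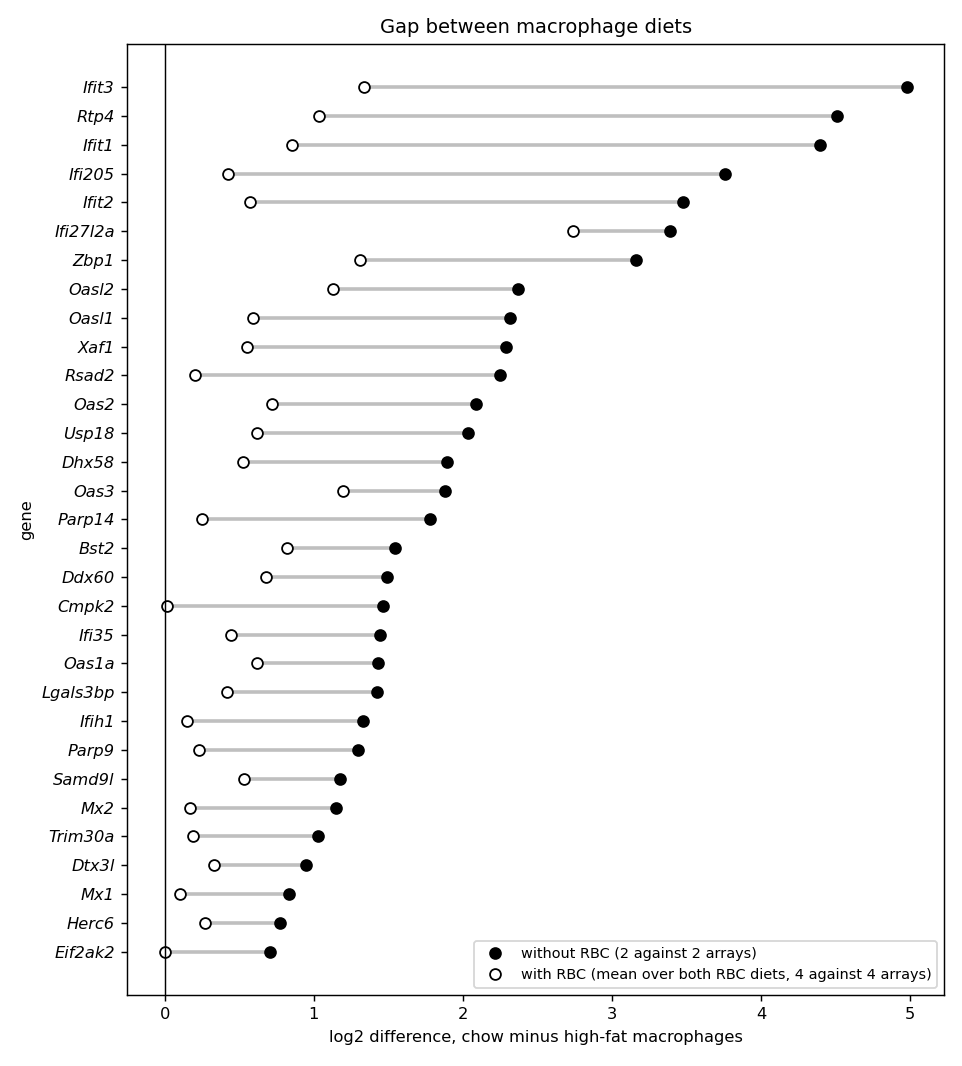
Difference in log2 signal between chow and high-fat macrophages for 31 genes (rows), without RBC (filled, 2 against 2 arrays) and with RBC averaged over both kinds (open, 4 against 4 arrays). Every open point lies left of its filled point, by the gene's response difference. Ifi27l2a moves least among the wide gaps, from 3.39 to 2.74, and Cmpk2 and Eif2ak2 reach about 0.

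Whether the diet of the RBC donor mattered was tested by comparing high-fat with chow RBC on the same macrophages. No gene of the list was called by limma in chow macrophages (0% of all genes tested were called) or in high-fat macrophages (0.0251%), and 3 and 1 of the 31 had an unadjusted p under 0.05. Median differences were -0.09 and -0.14. The outermost were Ifit1 at -0.47 ± 0.20 and Ddx60 at 0.30 ± 0.12 in chow macrophages, and Ifit2 at -0.43 ± 0.28 and Samd9l at 0.26 ± 0.12 in high-fat macrophages. The 95% intervals over the 31 genes reached from -0.89 to 0.63 in chow and from -1.03 to 0.58 in high-fat macrophages. The effect of RBC diet did not pass for a difference between macrophage diets in any of the genes (0 called, 1 with unadjusted p under 0.05, 0% of all genes called).

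In the pathway, the interferons and their sensors stand upstream of the antiviral genes. Whether they acted on those genes in these cultures was not tested. Of 25 measured genes of interferon production and sensing, 7 were lower and 0 higher in high-fat macrophages without RBC (5.82% and 8.12% of all genes), with a median difference of -0.18. Of these 25 genes, 3 fell and 1 rose with each kind of RBC in chow macrophages, where 2.94% (chow RBC) and 2.93% (high-fat RBC) of all genes fell and 6.23% and 5.41% rose. In high-fat macrophages chow RBC raised 2 (Irf7 and Ddx58, by 0.98 ± 0.20 and 0.55 ± 0.11) and high-fat RBC 0 (0.557% and 0.647% of all genes). Ifnb1, interferon beta itself, lay between 2.82 and 3.34 on all 12 arrays, and was called in none of the comparisons of exposure or macrophage diet. On every array it lay below the median of all genes, which ran from 5.24 to 5.31. An unchanged level of Ifnb1 and one too faint to be read therefore cannot be told apart. Irf7, the factor that drives interferon genes, gave 9.27 and 9.19, 8.93 and 8.45, and 8.92 and 9.09 in chow macrophages against 5.98 and 5.39, 6.79 and 6.55, and 6.29 and 6.76 in high-fat macrophages. Its diet difference was -3.54 ± 0.20 without RBC, and -2.02 ± 0.20 and -2.48 ± 0.20 with chow and high-fat RBC present, all called. Ddx58 (RIG-I, a sensor of viral RNA) was at -1.37 ± 0.11 without RBC and the kinase gene Ikbke at -0.98 ± 0.10, and both fell with either kind of RBC in chow macrophages. Myd88, an adaptor of Toll-like receptors, was at -0.74 ± 0.10 and Tlr9 at -0.68 ± 0.13. The gene that rose in chow macrophages with each kind of RBC was Tlr4, a receptor of bacterial lipid, by 0.42 ± 0.10 (chow RBC) and 0.44 ± 0.10 (high-fat RBC). Sting1, an adaptor of DNA sensing, had estimates of 0.47 ± 0.14 with each kind that did not pass.

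Of 16 measured genes of interferon receptors and signalling, 11 were lower and 0 higher in high-fat macrophages without RBC (5.82% and 8.12% of all genes). In chow macrophages 5 fell with each kind of RBC (2.94% and 2.93% of all genes), and in high-fat macrophages 1 rose when the RBC came from chow mice and 0 when they came from high-fat mice (0.557% and 0.647% of all genes). Stat2 gave 7.88 and 7.81, 7.38 and 7.22, and 7.21 and 7.34 in chow macrophages against 6.40 and 6.62, 7.02 and 7.07, and 6.92 and 7.15 in high-fat macrophages. Irf9 gave 7.39 and 7.41, 7.09 and 7.03, and 6.93 and 7.21 against 6.37 and 6.18, 6.92 and 7.12, and 6.72 and 7.14. These partners in ISGF3 followed the order of the antiviral genes, with diet differences of -1.33 ± 0.11 and -1.12 ± 0.14 and response differences of 1.08 ± 0.14 and 1.03 ± 0.17. The receptor genes were lower in high-fat macrophages without RBC by 0.81 ± 0.14 for Ifnar1 and 0.42 ± 0.10 for Ifnar2 and passed for no exposure. Jak2, Socs3 and Irf1 had diet differences of -0.79 ± 0.12, -0.94 ± 0.13 and -1.83 ± 0.24.

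**Figure D5:**
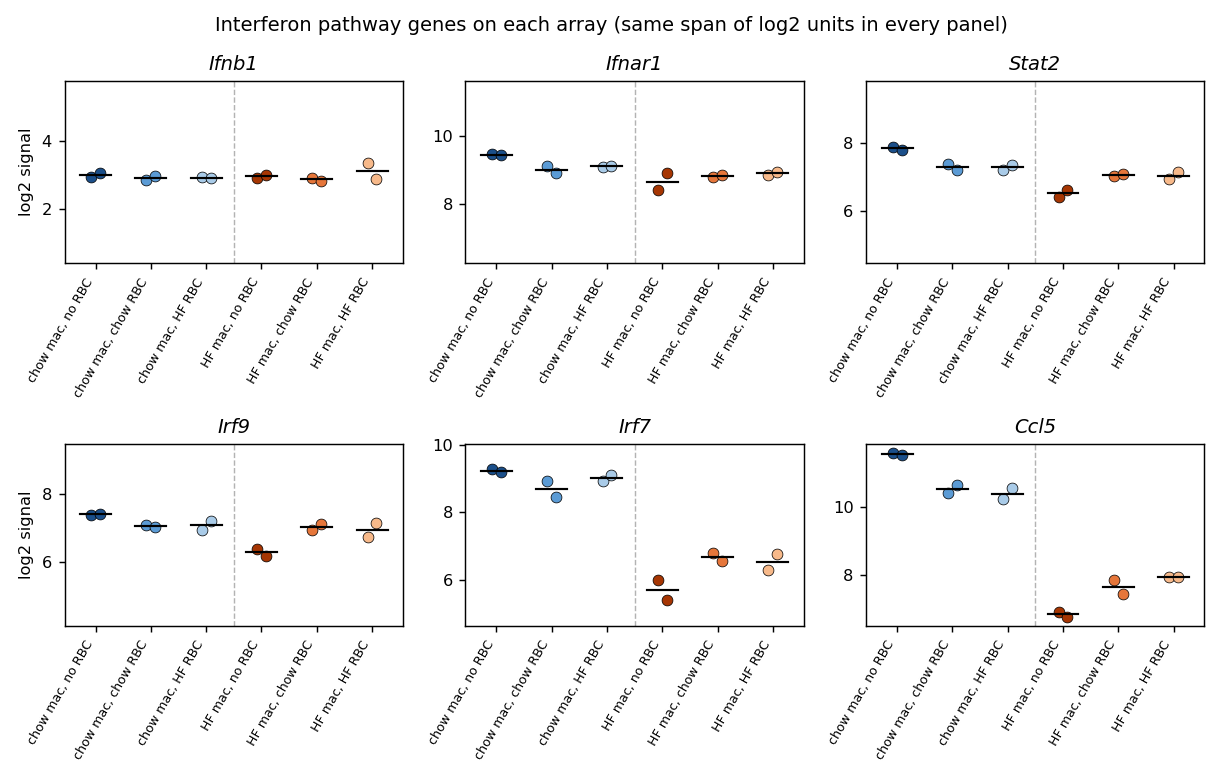
Log2 signal of 6 genes of the interferon pathway on each array (points) with the group mean (line), chow macrophages left and high-fat (HF) macrophages right of the dashed line; every panel spans the same number of log2 units. Ifnb1 stays near 3 throughout, below the median of all genes on every array. In Stat2 and Irf9 the macrophage diets approach each other with RBC, and Irf7 and Ccl5 stay apart by macrophage diet.

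Of 39 further interferon-stimulated genes measured, 31 were lower and 0 higher in high-fat macrophages without RBC (5.82% and 8.12% of all genes), and 20 had a called response difference, all positive (2.57% of all genes). In chow macrophages chow RBC lowered 14 and high-fat RBC 11 (2.94% and 2.93% of all genes), and in high-fat macrophages 3 and 2 rose (0.557% and 0.647% of all genes). High-fat macrophages were lower for 11 genes in the presence of chow RBC and for 14 in that of high-fat RBC (1.56% and 0.903% of all genes). Ccl5, a chemokine for T cells and monocytes, gave 11.60 and 11.54, 10.43 and 10.65, and 10.23 and 10.56 against 6.89 and 6.75, 7.84 and 7.41, and 7.92 and 7.92. Its diet difference of -4.75 ± 0.14 without RBC was still -2.92 ± 0.14 and -2.47 ± 0.14 with chow and high-fat RBC. Cxcl10, a chemokine induced by interferon, was at -2.77 ± 0.23, Gbp5, a guanylate-binding protein, at -2.75 ± 0.21, and Ms4a4c, a membrane protein, at -2.45 ± 0.17 without RBC. In chow macrophages with high-fat RBC, array 2 was above array 1 for Gbp5 (4.82 against 3.86), Irf1 (7.89 against 6.77) and Cxcl10 (5.93 against 5.07). The mean over the 39 genes ran from 7.19 to 7.36 on these arrays, and from 7.16 to 7.24 on those with chow RBC.

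The label of macrophages was checked on 10 markers, whose mean log2 level stood above the median of all genes on every array. In chow macrophages it was 9.48 to 9.49 without RBC and 9.45 to 9.54 with RBC, while the antiviral genes were lower with RBC. Single markers moved there in both directions. With chow and high-fat RBC, Adgre1 fell by 0.68 and 0.67, Csf1r by 0.40 and 0.42 and Timd4 by 0.53 and 0.67. Mertk rose by 0.59 and 0.74 and Mrc1 by 0.49 and 0.58. Of all genes 2.94% and 2.93% fell and 6.23% and 5.41% rose. In high-fat macrophages the mean level of the 10 markers was 9.0 to 9.03 without RBC and 9.25 to 9.29 with RBC. In high-fat macrophages without RBC 5 of the 10 were lower (Cd14 at -1.82, Fcgr1 at -1.81, Adgre1 at -1.17, Csf1r at -0.81 and Timd4 at -0.67) and 2 higher (Mrc1 at 0.78 and Mertk at 0.51), where 5.82% of all genes were lower and 8.12% higher. B cell markers were lower there in 5 and higher in 1 of 8 (Cd79a at -2.19), with a mean level of 5.07 to 5.28 in chow and 4.40 to 4.50 in high-fat macrophages. They also fell with RBC in chow macrophages, 2 of 8 with chow RBC (Ms4a1 by 0.78 and Cd79b by 0.53) and 4 of 8 with high-fat RBC (Ms4a1 by 1.04, Cd79a by 0.89, Cd79b by 0.82 and Blk by 0.38), to a mean level of 4.74 to 4.95. In high-fat macrophages with RBC the B cell mean was 4.43 to 4.52. Markers of plasmacytoid dendritic cells, strong makers of interferon, were lower in 4 of 7 without RBC, with a mean of 5.60 to 5.67 in chow against 5.14 to 5.30 in high-fat macrophages, and with RBC the mean was 5.29 to 5.53 in chow and 5.08 to 5.24 in high-fat macrophages. In high-fat macrophages without RBC, conventional dendritic cell and eosinophil markers were called higher in 1 of 6 and 1 of 5, with 1 of the eosinophil markers lower. Of all genes 8.12% were higher and 5.82% lower in that comparison. The mean levels of these 2 lists and of the 9 T and NK cell markers overlapped between the macrophage diets without RBC. The part of these cells in the differences of the antiviral genes was not tested.

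Some markers of neutrophils and platelets were higher with RBC. Of 15 neutrophil markers, 5 rose and 1 fell in chow macrophages with each kind of RBC, and in high-fat macrophages chow RBC raised 5 and high-fat RBC 6. The shares of all genes that rose were 6.23% and 5.41% in chow and 0.557% and 0.647% in high-fat macrophages. The median difference of the neutrophil markers was -0.04 and 0.03 in chow and 0.28 and 0.38 in high-fat macrophages, so with chow RBC in chow macrophages the median and the mean level moved in opposite directions. The mean level of the neutrophil markers was 5.47 to 5.49 in chow and 5.09 to 5.18 in high-fat macrophages without RBC, 6.03 to 6.15 in chow and 5.90 to 6.21 in high-fat macrophages with RBC. Of 8 platelet markers, 4, 3, 5 and 3 rose in chow macrophages with chow and high-fat RBC and in high-fat macrophages with chow and high-fat RBC, in that order, and of 7 erythroid markers 2, 1, 1 and 0 rose, with medians of -0.06, -0.12, 0.05 and -0.02. The platelet mean was 5.96 to 5.98 in chow and 5.54 to 5.72 in high-fat macrophages without RBC, and ran from 6.46 to 6.96 with RBC. The erythroid mean ran from 4.28 to 4.39 without RBC and from 4.39 to 4.83 with RBC. Without RBC, 5 of 15 neutrophil and 3 of 8 platelet markers were lower in high-fat than in chow macrophages, and 0 were higher. Of 7 erythroid markers 1 was higher and 0 lower there (8.12% and 5.82% of all genes). No marker is at 0 on an array of this kind. The neutrophil and platelet means were higher with RBC in both kinds of macrophage, while the antiviral genes were lower in chow and higher in high-fat macrophages, and the part of these cells in either was not tested.

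Likeness among the genes was measured by Pearson r over 12 arrays with the mean of the other genes of the list. It was highest for Oas2 (0.985) and lowest for Mx1 (0.776), Eif2ak2 (0.803), Cmpk2 (0.862), Ifi205 (0.863) and Ifi27l2a (0.871). Outside the list, the genes most like the mean of the 31 were Cd86 (r = 0.989), Eif6 (0.985), Cmklr1 (0.984), Cxcl16 (0.981), Clec4e (0.981), Slfn8 (0.980), Dck (0.976) and Stat2 (0.975). Slfn8 and Stat2 are on the interferon lists above and the other 6 are not. The 12 points share 6 groups, and the correlations describe them.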

How the data were processed

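RNA of 12 macrophage cultures was hybridised to 12 arrays, and the authors deposited log2 signals per probe set; their summarization and normalization are not given in the sources used here, and the log2 scale was read from the range of the deposited values. Of 35556 probe sets with values, 21789 with 1 gene symbol were kept, 1621 with several symbols entered only a separate fit, and 12146 were unlisted; the brightest by mean over all arrays stood for each of 19938 genes, with no filter on low values. Group means were fitted by lmFit and eBayes (limma 3.58.1, R 4.3.3, residual df 6, prior df 7.69), and 11 two-sided contrasts were tested with Benjamini-Hochberg adjustment over all genes. The fit was checked on simulated data. The genes of the list, the other lists and the tests were chosen with earlier results of these data known. Values by array are given for up to 3 genes per role with the largest response difference, for genes measured with others, and for Oas3, Eif2ak2 and Ifi27l2a, which were picked after their values were seen. Pathway genes are those of smallest p for the response difference in each list plus a fixed set. Alternatives were other normalization, filters, thresholds, probe set rules, weights, blocks and omission of each array.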

Additional observations from a re-analysis of the deposited data

Results flagged for a closer look

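The response to RBC differed between high-fat and chow macrophages, by the interaction term of the limma fit, for 29 of the 31 interferon-stimulated genes with a probe set of their own. The difference, high-fat minus chow on the log2 scale and averaged over both kinds of RBC, was above 2 for Ifit3 (3.64), Ifit1 (3.55), Rtp4 (3.48), Ifi205 (3.33), Ifit2 (2.90) and Rsad2 (2.05). It lay between 1 and 2 for Zbp1 (1.85), Xaf1 (1.74), Oasl1 (1.73), Parp14 (1.53), Cmpk2 (1.45), Usp18 (1.42), Oas2 (1.37), Dhx58 (1.37), Oasl2 (1.24), Ifih1 (1.18), Parp9 (1.07) and Lgals3bp (1.01). It was below 1 for Ifi35 (1.00), Mx2 (0.98), Trim30a (0.84), Ddx60 (0.81), Oas1a (0.81), Mx1 (0.73), Bst2 (0.73), Eif2ak2 (0.71), Oas3 (0.69), Samd9l (0.65) and Dtx3l (0.61). The probe set shared by Isg15 and Gm9706 gave 2.06 in the fit that kept shared probe sets.

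Of the other interferon pathway genes named, 16 had a called difference in response, also positive in each. Apart from a fixed set, they were named for the smallest p in this same difference, so the 16 are no separate result. Over the whole lists of production and sensing, signalling and further genes, it was called positive for 5 of 25, 5 of 16 and 20 of 39 (2.57% of all genes). Among genes of production and sensing these were Irf7 (1.29), Ddx58 (1.27), Ikbke (1.15), Tlr9 (0.74) and Myd88 (0.53), and among genes of signalling Irf1 (1.29), Stat2 (1.08), Irf9 (1.03), Socs3 (0.81) and Jak2 (0.64). Among further interferon-stimulated genes they were Cxcl10 (2.35), Gbp5 (2.14), Ccl5 (2.05), Ms4a4c (1.78), Slfn8 (1.22) and Rnf213 (0.92). For Irf1, Gbp5 and Cxcl10 the response in chow macrophages differed between the arrays with high-fat RBC, as given above. All these differences rest on the same 4 arrays without RBC. With 2 arrays a group, single arrays were not tested for standing apart.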

How the results depend on the processing

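No estimate that passed the test changed sign under any alternative, and the 46 sign changes seen were of estimates called in neither fit. Of the counts of called genes, the rise in high-fat macrophages depended most on the settings. With chow RBC its 11 genes became 18 with an intensity trend and robust eBayes, 7 with array weights and 4 with only the compared arrays; with high-fat RBC its 7 became 3 with only the compared arrays. Leaving out an array in turn gave 15 to 24 genes lower in chow macrophages with chow RBC and 14 to 24 with high-fat RBC, 4 to 14 and 3 to 7 genes higher in high-fat macrophages, 24 to 29 for the response difference, 31 to 31 for the diet difference without RBC, 5 to 17 and 7 to 14 for it with chow and high-fat RBC, and 0 to 0 for the comparisons of RBC diet. The causes were not tested. Of the genes called, 12 of 21, 13 of 23, 4 of 11, 3 of 7, 22 of 29, 31 of 31, 5 of 15 and 7 of 12 kept their call in every such fit, in the same order.

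The labels do not state whether an animal number marks the same animal in different groups. Arrays of the same number deviated together (correlation above 0.1) in 2 of 15 pairs of groups, with correlations from -0.23 to 0.34. Both were among the 6 pairs within a macrophage diet, where correlations ran from -0.08 to 0.34, so pairing within a diet remains unsettled. With the animal number as a replicate block over all groups the counts were 22 and 23 lower in chow macrophages, 12 and 6 higher in high-fat macrophages, 29 for the response difference, 31 for the diet difference, 16 and 11 for it with RBC, and 0 for RBC diet, and blocks within macrophage diet had a consensus correlation of 0.050. Signal over background is unknown, so which genes it limits could not be told.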
